A study of Mus musculus with 19 samples.

Results

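Loss of the transcription factor Foxd3 in epiblast-like cells (EpiLC) was described from the EpiLC samples of a mouse array study. The samples were chosen by their titles and number 6 of 12, read on 8 of the 19 arrays. The tamoxifen group holds EpiLC given 1 µM tamoxifen for 36 h, which per the labels induced the knockout, in 3 samples and 5 arrays. The ethanol group holds EpiLC given ethanol in 3 samples and 3 arrays. Embryonic stem cells (ESC) given tamoxifen or ethanol, 3 samples each, form the rest of the study. The medium of both cell types was Knockout DMEM supplemented with 15% serum, and the ESC also had LIF and inhibitors of GSK3 and MEK. The labels name neither the floxed allele nor the recombinase, and no group had tamoxifen without the deletion, so an effect of tamoxifen itself and one of the deletion cannot be told apart.

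Foxd3 is a forkhead factor that binds enhancers in pluripotent cells and in the neural crest, and it is known from mouse embryos to be needed for the epiblast. EpiLC are cultured cells that have left the naive state of ESC and resemble the epiblast around implantation. They express Fgf5, a growth factor of the epiblast, and Dnmt3b, which methylates DNA anew, and they have lowered naive factors such as Klf2 and Tbx3 while keeping Oct4 (Pou5f1).

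The identity of the cells was checked on these markers. Fgf5 measured 11.47, 11.35 and 11.50 in ethanol EpiLC, against 4.63, 4.80 and 4.55 in ethanol ESC (normalised log2 intensity, 1 value per sample, the scale used throughout). Klf2 went the other way, with 9.56, 9.98 and 9.50 in ethanol EpiLC, against 13.09, 13.05 and 13.15 in ethanol ESC. Of 18 formative epiblast markers on the array, 13 were detected on all 8 EpiLC arrays and 4 on none (Cdh2, Dnmt3a, Sox3 and Zic5), where detection means a p-value under 0.01 against negative control beads. Foxd3 itself could not be checked. Its 1 probe was detected on 0 of 19 arrays and measured 4.57, 4.59 and 4.50 in tamoxifen EpiLC, against 4.51, 4.56 and 4.48 in ethanol EpiLC, so the deletion rests on the labels. The EpiLC arrays detected 10707 to 11481 of 25697 probes. Of the 9422 genes tested, 9033 were detected on at least 1 EpiLC array and 7624 on all 8.

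In EpiLC 651 genes passed the test (limma, Benjamini-Hochberg adjusted p under 0.05), which is 6.91% of those tested. Of these, 447 were higher in tamoxifen (4.74%) and 204 were lower (2.17%), and 76 of the rises and 9 of the falls reached at least 2-fold. An unadjusted p under 0.05 was reached by 2117 genes. For 2326 genes (24.7%) every tamoxifen sample lay on one side of every ethanol sample. The median log2 change of all genes was -0.02. Calls came from dim and bright genes alike: of 4 classes of rising mean level, 6.15%, 8.36%, 7.65% and 5.48% of the genes were called. Without tamoxifen sample 2 the count of 651 was 418, without tamoxifen sample 3 it was 351 and without ethanol sample 1 it was 411. Blocked on the sample number, the fit called 1876 genes (19.9%), 1032 higher (11%) and 844 lower (8.96%). On the arrays of hybridization round 1 alone, which hold all 6 samples, 366 were called. Scaling the arrays to equal medians gave 315 higher and 243 lower, 56.5% higher in place of 68.7%, with the median of all genes at -0.09.

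**Figure D1:**
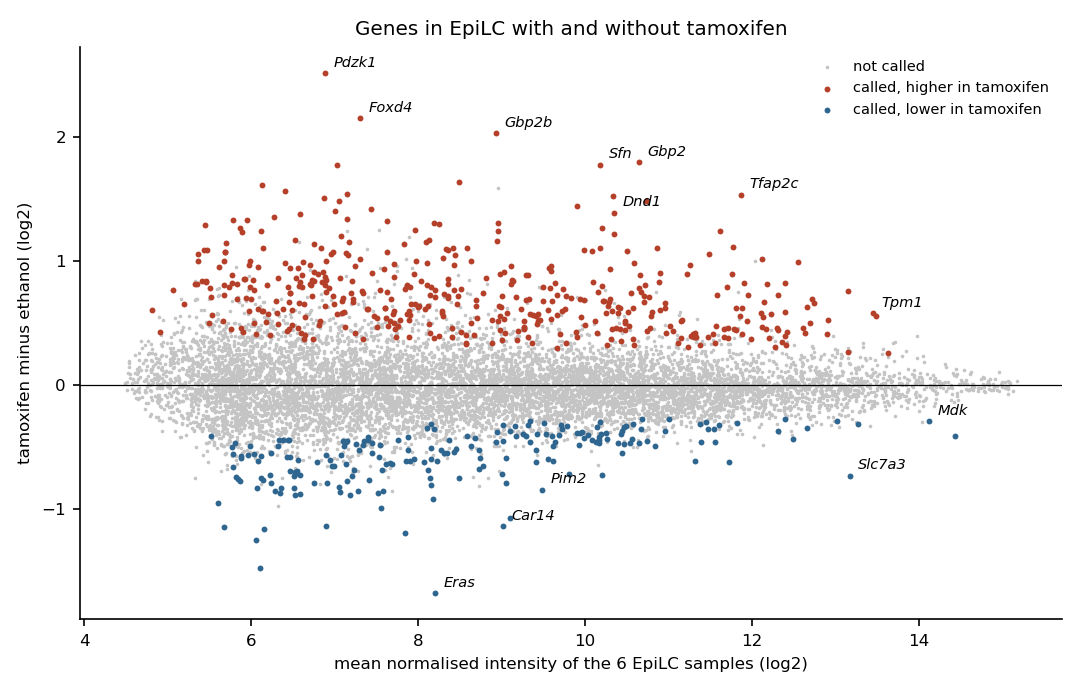
Each point is 1 of 9422 genes, with its mean normalised intensity over the 6 EpiLC samples (log2) on the horizontal axis and tamoxifen minus ethanol (log2) on the vertical axis. The 447 genes called higher reach further from 0 than the 204 called lower, and Pdzk1, Foxd4 and Eras lie at the edges.

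The largest rises were in genes of several functions, and a shared function was not tested. Among them were Gbp2 and Gbp2b of the interferon list, Sfn and Krt19 of the epithelial list and Tfap2c of the trophoblast list. Pdzk1, a scaffold that anchors membrane transporters, measured 8.27, 8.32 and 7.83 in tamoxifen samples 1, 2 and 3, against 5.56, 5.79 and 5.53 in ethanol. In bead intensity on round 1 arrays these were 406.2, 423, and 276.4 in tamoxifen, against 175.2, 190.2 and 167.3 in ethanol. All 3 tamoxifen samples lay well above the ethanol samples, and since Pdzk1 was detected on 1 of 3 ethanol arrays the fitted log2 change depended on the background correction, 2.51 with it and 1.15 without. Foxd4, a forkhead factor closely related to Foxd3, measured 8.26, 8.58 and 8.32 in tamoxifen, against 5.59, 6.39 and 6.71 in ethanol. Its ethanol samples were more spread than its tamoxifen samples (SD 0.58 and 0.17), and the groups did not overlap. Foxd4 was detected on 2 of 3 ethanol arrays, so its ethanol values and their spread are those of levels near the background. Of the 18 forkhead genes tested Foxd4 was the 1 that passed, a share of 5.56%, below the 6.91% of all genes tested. In the blocked fit, which called 19.9% of all genes, Foxn3 and Foxa3 were also called, as lower (adjusted p = 0.00955 and 0.00901). The forkhead genes other than Foxd4 had log2 changes between -0.67 (Foxr2, adjusted p = 0.151) and 0.23 (Foxj2, adjusted p = 0.263).

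Among the other large rises were transporters and signalling molecules. Slc5a5, the sodium-iodide symporter, measured 7.82, 8.11 and 7.82 in tamoxifen, against 5.96, 6.23 and 6.25 in ethanol. Slc39a4, which imports zinc, measured 10.91, 11.36 and 10.99 in tamoxifen and 9.30, 9.94 and 9.47 in ethanol. It rose 2.86-fold (log2 1.52, SE 0.18, adjusted p = 0.00107). Efnb1, a membrane-bound ligand of Eph receptors, measured 9.19, 9.18 and 9.54 in tamoxifen, against 7.51, 7.64 and 7.86 in ethanol, a rise of 3.1-fold (SE 0.22 in log2, adjusted p = 0.0016). Secretin (Sct), a peptide hormone of the gut, rose 2.79-fold, with 11.54, 11.19 and 11.67 in tamoxifen and 10.06, 9.58 and 10.33 in ethanol. The largest rises and falls were named among genes whose groups do not overlap, so that separation is a description. The call of these 4 genes held in all 20 alternatives. Cpsf4l, a relative of a polyadenylation factor, rose by 1.44 (SE 0.21) and Pisd-ps2, a pseudogene whose probe may also bind RNA of its parent gene, by 1.48 (SE 0.14). Over all 169 solute carriers tested, 8 were higher and 5 lower (22 and 18 in the blocked fit), with a median change of -0.00 against -0.02 for all genes. The share called was 7.69%, close to the 6.91% of all genes tested, and the blocked fit called 19.9% of all genes. Leaving out single samples gave 3 to 6 higher and 2 to 5 lower, with 3 and 3 without tamoxifen sample 2, 2 lower without tamoxifen sample 3, 3 lower without tamoxifen sample 1, 4 higher without ethanol sample 1 or 2, and 5 higher and 3 lower without ethanol sample 3. Slc40a1, the iron exporter, rose by 1.06 (SE 0.20), while Slc7a3, an arginine and lysine importer, fell by 0.73 (SE 0.12) and Slc1a3, a glutamate importer, fell by 0.72 (SE 0.13).

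**Figure D2:**
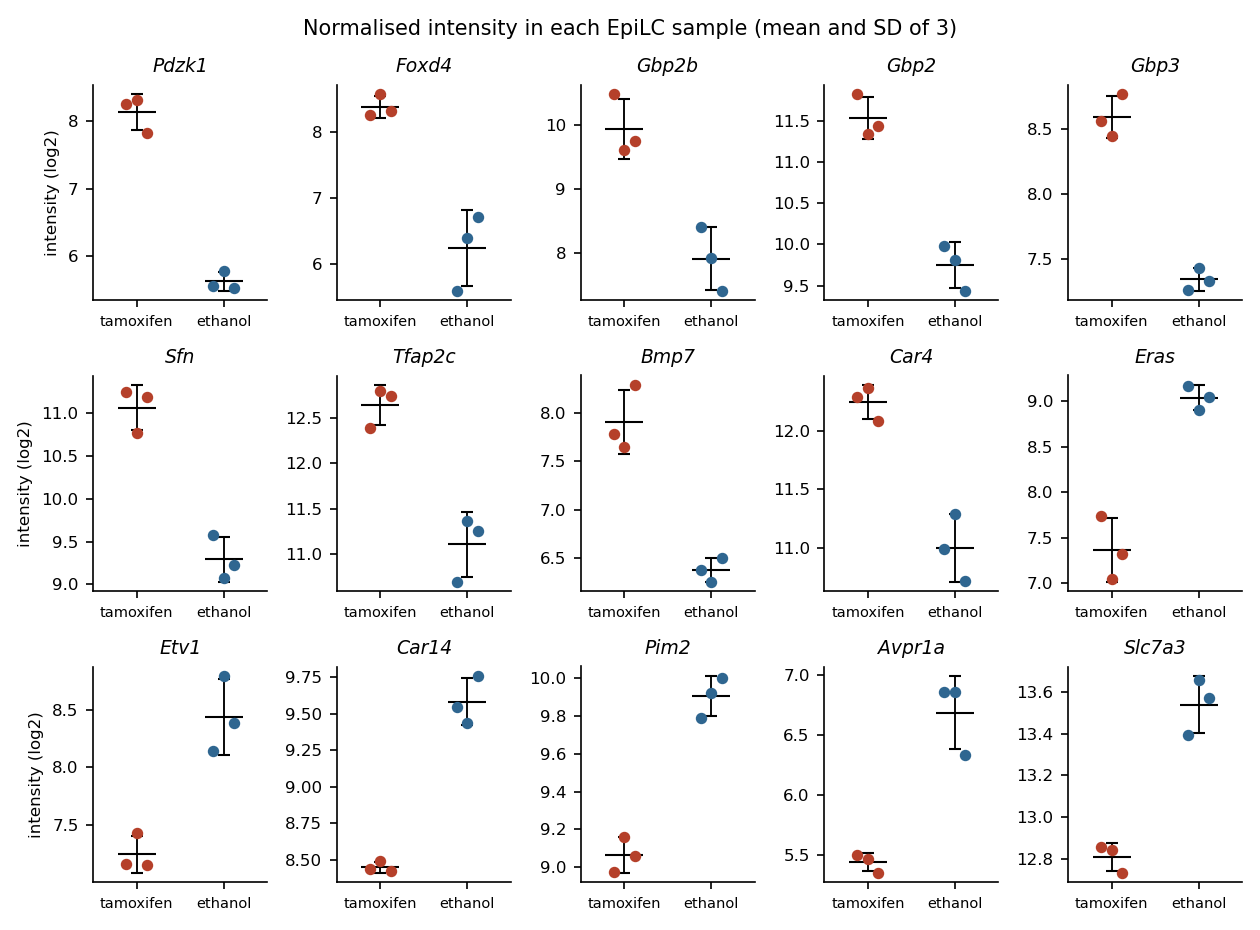
Normalised intensity (log2) of 15 genes in each of the 3 tamoxifen and 3 ethanol EpiLC samples, with the mean and SD of each group; vertical axes differ between panels. In each panel the 3 tamoxifen points lie on one side of the 3 ethanol points, which for most of these genes was part of how they were chosen. Pdzk1 has 8.27, 8.32 and 7.83 in tamoxifen and 5.56, 5.79 and 5.53 in ethanol, where it is near the background.

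Interferons switch on a set of antiviral genes by way of STAT and IRF factors, among them the guanylate-binding proteins (Gbp), GTPases that attack intracellular pathogens. In tamoxifen EpiLC 10 of the 19 tested members of an interferon list were higher and 1 was lower, with a median log2 change of 0.66 against -0.02 for all genes (0.25 without background correction). Over the 20 alternatives 6 to 12 were higher. This list, like every gene list of this report, was chosen with earlier results of these data known. List counts and medians are therefore descriptions. Over all genes tested 6.91% were called, the share to set beside the count of each list. The 3 Gbp genes that rose lie side by side on chromosome 3, between 142560016 and 142638008 (GRCm38.p6). Their RefSeq promoters, 250 bases before to 50 after the annotated start, are shown because each holds, on the reverse strand, the core of the interferon-stimulated response element, a pair of GAAA tetramers parted by NN. The window of Irf1, an interferon-response factor that also rose, is shown beside them for its match to TTCNNNGAA, the gamma-activated site. The forkhead core TGTTTAC was searched for too and was found once, in the Gbp3 window on the reverse strand. Capitals mark the matches, both strands were searched, and the 2 response element matches of Gbp3 overlap. RefSeq gives Gbp3 and Irf1 a second window each, at a start further downstream, and those windows hold 0 matches and are not shown.
Gbp2b, chr3:142594597-142594896, plus strand: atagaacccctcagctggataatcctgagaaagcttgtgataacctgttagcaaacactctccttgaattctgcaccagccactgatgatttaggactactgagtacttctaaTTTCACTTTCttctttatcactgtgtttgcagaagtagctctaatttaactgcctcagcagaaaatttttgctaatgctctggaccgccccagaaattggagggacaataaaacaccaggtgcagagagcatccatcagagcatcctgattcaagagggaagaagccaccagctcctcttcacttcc
Gbp2, chr3:142620413-142620712, plus strand: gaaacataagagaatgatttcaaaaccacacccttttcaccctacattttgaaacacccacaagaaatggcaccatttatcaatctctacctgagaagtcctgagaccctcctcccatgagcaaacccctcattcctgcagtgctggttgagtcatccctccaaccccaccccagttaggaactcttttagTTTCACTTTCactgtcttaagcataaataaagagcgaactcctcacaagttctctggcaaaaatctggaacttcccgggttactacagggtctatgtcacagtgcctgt
Gbp3, chr3:142559794-142560093, plus strand: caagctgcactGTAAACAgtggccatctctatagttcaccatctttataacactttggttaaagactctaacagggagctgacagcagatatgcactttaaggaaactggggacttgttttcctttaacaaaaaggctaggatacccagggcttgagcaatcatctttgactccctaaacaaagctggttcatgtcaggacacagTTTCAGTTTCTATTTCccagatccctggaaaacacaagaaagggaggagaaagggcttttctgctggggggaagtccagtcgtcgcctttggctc
Irf1, chr11:53769764-53770063, plus strand: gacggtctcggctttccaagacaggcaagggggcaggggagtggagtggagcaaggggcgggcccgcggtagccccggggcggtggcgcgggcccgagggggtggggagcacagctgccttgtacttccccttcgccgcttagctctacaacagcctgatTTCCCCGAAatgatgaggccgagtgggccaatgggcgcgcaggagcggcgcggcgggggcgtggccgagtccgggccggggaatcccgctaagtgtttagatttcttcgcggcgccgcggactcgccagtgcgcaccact

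The matches begin 137 bases before the start of Gbp2b, 59 before that of Gbp2, 45 and 39 before that of Gbp3 (239 for its forkhead core), and 90 before that of Irf1. The response element core occurs in 3.44% of all 32851 RefSeq windows, in 2.83% of the windows of tested genes, in 3.86% of those of genes called higher and in 2.97% of those of genes called lower. TTCNNNGAA occurs in 8.3%, 6.63%, 6.52% and 9.41% of the same sets. The forkhead core TGTTTAC occurs in 3.65%, 2.44%, 3.14% and 2.48% of them. Windows were found for 7076 tested genes and 479 called ones. Matches are descriptions of the letters and say nothing of binding in these cells.

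Gbp2 measured 11.83, 11.35 and 11.45 in tamoxifen, against 9.99, 9.82 and 9.44 in ethanol. Gbp2b measured 10.48, 9.61 and 9.75 in tamoxifen and 8.41, 7.93 and 7.42 in ethanol. The groups stood apart in both genes, and the sample with number 1 was the highest of its group each time. Gbp2 and Gbp2b are close relatives, so cross-hybridization of their probes cannot be told apart from expression of both. Gbp3 measured 8.55, 8.44 and 8.76 in tamoxifen, against 7.26, 7.43 and 7.33 in ethanol, and rose 2.37-fold (log2 1.24, SE 0.14, adjusted p = 0.000684). A further probe of Gbp3 gave 1.28 and one of Gbp2 gave 1.66. Irf1 measured 13.06, 13.06 and 13.10 in tamoxifen and 12.30, 12.52 and 12.42 in ethanol, a rise of 1.58-fold (SE 0.10 in log2, adjusted p = 0.00341), and its 5 probes gave rises of 0.47 to 0.84. Irf1 was not called once arrays were given equal medians (adjusted p = 0.0514). Ifi27, an interferon-induced mitochondrial protein, was detected on 0 of 3 ethanol arrays and was at least 1.36-fold higher.

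Genes that load peptides on MHC class I molecules rose in part. Of 14 tested, 4 were higher and 0 lower (7 and 0 in the blocked fit), with a median change of 0.26. Tap2, a subunit of the peptide transporter, measured 8.29, 8.01 and 8.17 in tamoxifen, against 7.34, 6.85 and 7.07 in ethanol, and rose 2.1-fold (SE 0.15 in log2, adjusted p = 0.00248). Tapbp, which bridges the transporter and the class I molecule, rose by 0.76 (SE 0.14), and Psmb8, a subunit of the immunoproteasome, by 0.62 (SE 0.11). Tap1, the partner of Tap2, rose by 0.78 (SE 0.18), but its call was lost without tamoxifen sample 2 or 3 or ethanol sample 1 or 2 (adjusted p = 0.0585 to 0.0801). Tap1, Psmb8 and Tap2 are neighbours on chromosome 17. Of the 34 proteasome subunits tested, Psmb8 was the 1 that passed, and their median change was -0.04.

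Trophoblast, the outer layer that forms the placenta, and surface epithelium use overlapping sets of regulators and keratins. Of 14 trophoblast genes tested 10 were higher and 0 lower, with a median change of 0.86 against -0.02 for all genes (0.50 without background correction). The number higher was 7 without tamoxifen sample 3 and 6 to 12 over the 20 alternatives. The list was chosen with earlier results of these data known, so its count and median are descriptions. The summed intensity of the list's 20 members on the array was 12790 to 17081 in tamoxifen, against 7157 to 8881 in ethanol. Sums here and below are of linear intensity, so the brightest members weigh most, among them Tfap2c for trophoblast. Elf5, Esx1, Hand1, Tfeb and Tpbpa were detected on no EpiLC array, and Cdx2, which establishes trophoblast, measured 5.94, 6.25 and 6.44 in tamoxifen and 6.26, 5.96 and 6.34 in ethanol. In bulk RNA, more cells of a type and more RNA per cell cannot be told apart.

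Tfap2c, an AP-2 factor of trophoblast, germ cells and ectoderm, measured 12.39, 12.79 and 12.73 in tamoxifen, against 10.70, 11.36 and 11.25 in ethanol. Its other probes gave rises of 1.70 and 1.77. Wnt7b, a Wnt ligand, measured 7.70, 7.89 and 7.66 in tamoxifen and 6.43, 6.72 and 6.64 in ethanol, and rose 2.23-fold (SE 0.15 in log2, adjusted p = 0.00136). Gata2 measured 8.88, 9.09 and 9.45 in tamoxifen and 7.85, 8.14 and 8.13 in ethanol, and Gata3, its relative, 8.89, 8.83 and 8.80 in tamoxifen and 7.57, 7.97 and 7.07 in ethanol. The 2 GATA factors rose 2.14-fold and 2.47-fold. Each of these 4 genes kept its call in all 20 alternatives.

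Among 31 genes of epithelial junctions and keratins, 8 were higher and 0 lower, with a median change of 0.21 (0.16 with arrays at equal medians and 0.06 without background correction). Without tamoxifen sample 3 or without ethanol sample 1 the number higher was 5. The rises were in keratins and a few other genes. Krt8 measured 12.35, 11.98 and 12.64 in tamoxifen, against 11.33, 10.89 and 11.43 in ethanol, and its partner Krt18 measured 11.14, 10.62 and 11.47 in tamoxifen and 10.14, 9.91 and 10.23 in ethanol. Sample 2 was the lowest of its group in both genes and in both treatments. Krt8 rose 2.16-fold (adjusted p = 0.00672, SE 0.20 in log2) and Krt18 rose 1.97-fold (SE 0.19). In the fit of the 6 EpiLC samples alone both calls were lost (adjusted p = 0.0511 for Krt8 and 0.0729 for Krt18). Krt7 rose by 0.87 (SE 0.15) and Krt14, detected on 0 of 3 ethanol arrays, was also called. Sfn, a 14-3-3 protein of stratified epithelia, measured 11.25, 10.77 and 11.19 in tamoxifen, against 9.58, 9.08 and 9.22 in ethanol. Krt19 rose 2.83-fold (SE 0.37 in log2), and its call was lost without tamoxifen sample 1 or 3 or ethanol sample 1 or 2 (adjusted p = 0.0599 to 0.117). E-cadherin (Cdh1) differed by 0.25 in log2 (adjusted p = 0.125).

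Of 8 neural crest genes tested, 3 were higher and 0 lower (5 and 0 in the blocked fit and also without ethanol sample 2), with a median change of 0.58 (0.36 without background correction). Edn1, a signalling peptide, measured 8.38, 7.75 and 8.74 in tamoxifen, against 6.97, 6.89 and 7.04 in ethanol, and rose 2.49-fold (SE 0.21 in log2, adjusted p = 0.00434). Its tamoxifen samples were far more spread than its ethanol samples, without overlap. Msx2, a homeobox factor, rose by 0.84 (SE 0.14) and is also in the trophoblast list. Msx1 rose by 1.09 (SE 0.22), and leaving out tamoxifen sample 3 brought it to an adjusted p of 0.0535. Ednrb, Pax3, Sox9 and Tfap2b were detected on no EpiLC array.

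**Figure D3:**
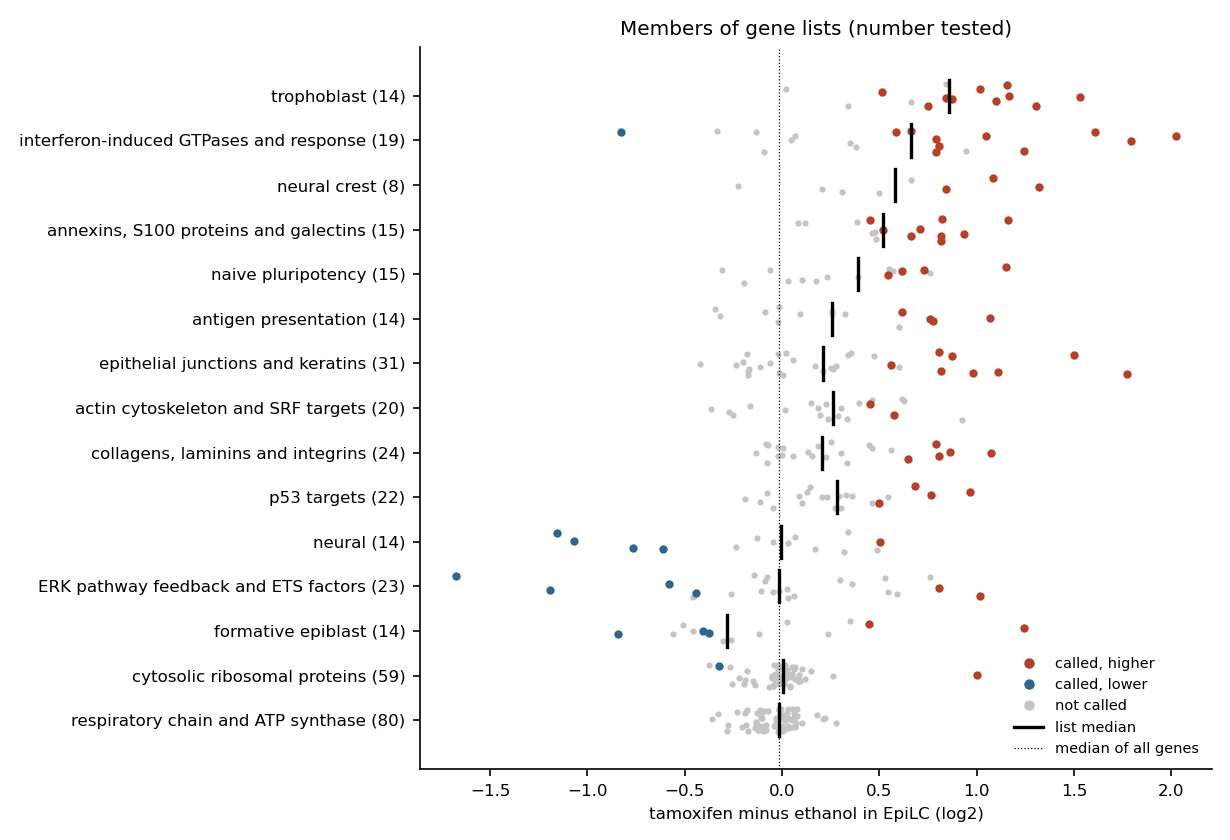
Log2 change, tamoxifen minus ethanol in EpiLC, of each tested member of 15 gene lists, with the list median as a bar and the median of all genes as a dotted line. The trophoblast list has the highest median of those drawn (0.86), the formative epiblast list the lowest (-0.28), and ribosomal and respiratory chain genes lie close to 0. The lists were chosen with earlier results of these data known.

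Annexins and S100 proteins bind calcium and membranes, and galectins bind sugars. All 15 tested members of this list had a positive change, 9 passed the test and 0 were lower, with a median of 0.52 (0.46 with arrays at equal medians). Without tamoxifen sample 3 the number higher was 5. Anxa2 measured 12.28, 12.34 and 12.31 in tamoxifen, against 11.50, 11.57 and 11.41 in ethanol. S100a11 measured 12.87, 12.69 and 12.85 in tamoxifen and 11.98 ± 0.03 in ethanol (mean and SD, n = 3). In both genes the distance between the groups was several times the spread within them. For Anxa2 the rise was 1.76-fold (SE 0.09 in log2) with an adjusted p of 0.000496, and for S100a11 it was 1.77-fold (SE 0.09) with an adjusted p of 0.000592. S100a6 rose by 1.16 (SE 0.17) and Anxa3 by 0.94 (SE 0.12). Lgals4, a galectin of the gut, rose by 0.45 (SE 0.09), and 1 of its 3 probes gave 0.05. With arrays at equal medians its adjusted p was 0.0874. Anxa6 lies next to Gpx3 and Tnip1 on chromosome 11, and all 3 neighbours were called higher.

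Targets of YAP, a factor that responds to cell shape and contact, include Ankrd1 and Ccn1. Of 11 tested 4 were higher and 0 lower, with a median change of 0.34 (0.19 without background correction). Without tamoxifen sample 2, without tamoxifen sample 3 or without ethanol sample 3 there were 2. Ankrd1 measured 7.26, 7.06 and 7.24 in tamoxifen, against 6.02, 6.36 and 6.27 in ethanol, and rose 1.96-fold (SE 0.11 in log2, adjusted p = 0.000684). Ccn1, a matrix protein, measured 9.93, 10.02 and 10.25 in tamoxifen and 8.86, 9.24 and 9.22 in ethanol, and rose 1.95-fold (SE 0.16, adjusted p = 0.00456). The kinase Nuak2 and the factor Tead4 passed by less, with changes of 0.34 and 0.51. Nuak2 lost its call in 11 and Tead4 in 11 of the 20 alternatives.

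Of 20 actin cytoskeleton genes 2 were higher and 0 lower, but 11 and 1 in the blocked fit, with a median change of 0.26 (0.14 with arrays at equal medians). Without tamoxifen sample 3, ethanol sample 2 or ethanol sample 3 there was 1. The share called was 10%, against 6.91% of all genes tested, and the blocked fit called 19.9% of all genes. Tpm1, a tropomyosin that runs along actin filaments, was among the brightest called genes. It measured 13.75, 13.66 and 13.80 in tamoxifen, against 13.20, 13.11 and 13.17 in ethanol, and rose 1.49-fold (SE 0.08 in log2, adjusted p = 0.00159). Acta2, smooth muscle actin, measured 9.56, 8.82 and 9.74 in tamoxifen and 8.77, 8.68 and 8.81 in ethanol, which did not pass (adjusted p = 0.0673). It was called in 5 of the 20 alternatives, among them the blocked fit (adjusted p = 0.0241). Fibroblast markers Col1a1, Col1a2, Col3a1, Col6a1, Lum, Postn and Prrx1 were detected on no EpiLC array, and of the 6 tested 0 were called (2 higher and 1 lower in the blocked fit). The summed intensity of the 13 fibroblast markers on the array was 1647 to 2082 in tamoxifen, against 1550 to 1617 in ethanol. Lasp1, an actin-binding protein of similar brightness to Tpm1 in the ranking of called genes, rose by 0.56 (SE 0.09). Also bright were Igfbp2, which binds insulin-like growth factors, with 13.44, 13.60 and 13.56 in tamoxifen and 12.68, 12.86 and 12.78 in ethanol, and Aldh2, a mitochondrial aldehyde dehydrogenase, which rose by 0.53 (SE 0.09). With arrays at equal medians Aldh2 had an adjusted p of 0.0653.

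Among matrix genes, 5 of 24 collagens, laminins and integrins were higher and 0 lower, with a median change of 0.21 (0.13 without background correction). Itgb4, the integrin of hemidesmosomes, measured 9.01, 9.54 and 9.19 in tamoxifen, against 8.09, 8.64 and 8.43 in ethanol, and rose 1.82-fold (SE 0.15 in log2, adjusted p = 0.0063). Lamb3, a chain of the laminin that Itgb4 contacts, was detected on 0 of 3 ethanol arrays and was at least 1.43-fold higher. Col2a1, the cartilage collagen, rose by 0.81 (SE 0.14), and Itga5, a fibronectin receptor, by 0.65 (SE 0.13), and leaving out tamoxifen sample 3 brought Itga5 to an adjusted p of 0.051. Of 9 ephrins and Eph receptors 3 were higher and 0 lower, and 1 was higher without tamoxifen sample 1 or without tamoxifen sample 3. Besides Efnb1 these were Efna5 and Epha2, with changes of 0.58 and 0.77. Efna5 was not called without any 1 EpiLC sample other than ethanol sample 2 (adjusted p = 0.0534 to 0.0856), nor Epha2 without tamoxifen sample 1 or 3 or ethanol sample 2 (adjusted p = 0.0763 to 0.102).

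Markers of pluripotent states moved in both directions. Of 15 naive genes tested 4 were higher and 0 lower (8 and 1 in the blocked fit), with a median change of 0.39 against -0.02 for all genes. The number higher was 2 with arrays at equal medians and 2 without ethanol sample 1. Tbx3, a T-box factor that sustains self-renewal, measured 8.38, 8.87 and 8.77 in tamoxifen, against 7.43, 7.77 and 7.35 in ethanol, and 11.56, 11.47 and 11.40 in ethanol ESC. Klf5 measured 11.46, 11.09 and 11.24 in tamoxifen, against 10.72, 10.60 and 10.62 in ethanol, and 12.47, 12.45 and 12.40 in ethanol ESC. Both stayed below the ESC level in every tamoxifen EpiLC sample. Klf2 had 10.07, 10.36 and 10.24 in tamoxifen and 9.56, 9.98 and 9.50 in ethanol, and its call was lost without tamoxifen sample 2 or 3 or ethanol sample 1 or 3 (adjusted p = 0.0798 to 0.0856). Nr0b1, Prdm14 and Tcl1 were detected on no EpiLC array. The core factors were not called: Pou5f1 measured 13.13, 13.31 and 13.15 in tamoxifen and 13.15, 13.25 and 13.21 in ethanol, while Nanog differed by -0.19 (adjusted p = 0.488).

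Of 14 formative epiblast genes 2 were higher and 3 lower, with a median of -0.28 (-0.31 with arrays at equal medians and -0.16 without background correction). On round 1 arrays 1 was higher and 1 lower, and leaving out any 1 EpiLC sample other than tamoxifen sample 2 left 1 lower; without tamoxifen sample 2 or 3, 1 was higher. Car4, a membrane-bound carbonic anhydrase, measured 12.28, 12.36 and 12.08 in tamoxifen, against 10.99, 11.29 and 10.71 in ethanol, and rose 2.37-fold (SE 0.14 in log2, adjusted p = 0.000684). Car14, of the same family, fell: it measured 8.44, 8.49 and 8.42 in tamoxifen and 9.55, 9.44 and 9.76 in ethanol. Pim2, a survival kinase, measured 8.97, 9.16 and 9.06 in tamoxifen and 9.91 ± 0.11 in ethanol (mean and SD, n = 3), and fell by 0.84 (SE 0.11, adjusted p = 0.0016). Fgf5 rose by 0.45 (SE 0.09), with 11.79, 11.97 and 11.92 in tamoxifen and 11.47, 11.35 and 11.50 in ethanol, a call lost without tamoxifen sample 2 or 3 and on round 1 arrays (adjusted p = 0.0575 to 0.0769). Dnmt3b measured 14.19, 14.33 and 14.16 in tamoxifen and 14.64, 14.65 and 14.61 in ethanol. Its call (adjusted p = 0.0389) was lost when any 1 of the 6 EpiLC samples was left out, and its dimmer probe gave -0.92. Otx2 and Pou3f1, epiblast factors, had log2 changes of 0.35 (adjusted p = 0.282) and 0.03 (adjusted p = 0.943).

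The 15 largest falls were in genes of several functions, and a shared function was not tested. Among them were Celf4 and Nefm of the neural list, and Eras and Etv1 of the list of ERK feedback and ETS factors. Eras, a Ras protein of ESC that signals without stimulation, measured 7.74, 7.04 and 7.32 in tamoxifen, against 9.17, 8.90 and 9.05 in ethanol. Its bead intensity on round 1 arrays was 305.2, 238.3 and 225.3 in tamoxifen, against 579.8, 580.9 and 511.1 in ethanol. Each tamoxifen sample lay below each ethanol sample on either scale. Eras, Pcsk1n and Pim2 are neighbours on the X chromosome, between 7878306 and 7928607, and all 3 were lower, Pcsk1n, an inhibitor of prohormone cleavage, with a change of -0.59 (SE 0.16, adjusted p = 0.048). Pcsk1n, Tnip1 and these neighbour runs were singled out after their values were seen. Etv1, an ETS factor downstream of FGF signalling, measured 7.16, 7.43 and 7.15 in tamoxifen, against 8.14, 8.79 and 8.38 in ethanol.

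Of 23 genes of ERK feedback and ETS factors 2 were higher and 4 lower (8 and 5 in the blocked fit), with a median of -0.01. The list also holds the Ras gene Eras, which is neither an ETS factor nor a feedback gene and was counted among those lower. On round 1 arrays, and without tamoxifen sample 1, tamoxifen sample 3 or ethanol sample 3, 0 were higher and 2 lower. Without ethanol sample 2, 0 were higher. Besides Eras and Etv1 the falls were in Fgfr1, an FGF receptor, and Myc, by 0.44 (SE 0.10) and 0.58 (SE 0.15). The call of Fgfr1 was lost without tamoxifen sample 1 or 3 or ethanol sample 3 (adjusted p = 0.0624 to 0.0739), and that of Myc in 11 of the 20 alternatives. The other ETS factors of the list, Etv4 and Etv5, had changes of -0.26 (adjusted p = 0.64) and 0.03 (adjusted p = 0.91).

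A further large fall was that of Avpr1a, a vasopressin receptor, which measured 5.49, 5.46 and 5.35 in tamoxifen, against 6.86, 6.86 and 6.33 in ethanol. It was detected on 0 of 5 tamoxifen arrays and 3 of 3 ethanol arrays and was at least 1.82-fold lower. Ldb2, a cofactor of LIM-domain factors, was at least 1.32-fold lower and Crhbp, which binds corticotropin-releasing hormone, at least 1.18-fold lower, each detected on 0 of 5 tamoxifen arrays. Of 14 neural genes tested 1 was higher and 4 lower, with a median of -0.01 against -0.02 for all genes, and 7 of the 14 were above 0. In the fit of EpiLC samples alone, and without number 3 in both groups, 0 were called. Their summed intensity over the 29 on the array was 5328 to 5928 in tamoxifen, against 7099 to 7436 in ethanol, and 15 were detected on no EpiLC array, among them Sox1, Pax6 and Tubb3. Syt11, a synaptotagmin of vesicle traffic, measured 10.81, 11.16 and 11.06 in tamoxifen and 11.51, 11.62 and 11.74 in ethanol, and fell by 0.61 (SE 0.11, adjusted p = 0.00811). Elavl3, a neuronal RNA-binding protein, fell by 0.76 (SE 0.14), detected on 2 of 5 tamoxifen arrays. Nefm, a neurofilament chain, had 9.04, 8.06 and 8.60 in tamoxifen and 9.90, 9.59 and 9.41 in ethanol. Its call was lost without tamoxifen sample 2 or 3 or ethanol sample 1 (adjusted p = 0.0552 to 0.0699). Cplx1, which regulates vesicle release, fell by 0.87 (SE 0.17) and Qprt, of NAD synthesis, by 0.89 (SE 0.13). Mapt, the microtubule protein tau, was the member called higher, a call lost with the probes of each gene averaged (adjusted p = 0.389).

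BMP and Nodal signals act through SMAD factors and pattern the epiblast. Of 24 tested genes of these pathways 3 were higher and 0 lower (1 lower with arrays at equal medians), with a median of 0.03. The share called was 12.5%, against 6.91% of all genes tested. The ligand Bmp7 measured 7.79, 7.65 and 8.29 in tamoxifen, against 6.37, 6.25 and 6.50 in ethanol. Smad3, which carries Nodal and activin signals, measured 8.68, 9.02 and 8.95 in tamoxifen and 7.63, 7.89 and 7.84 in ethanol, and rose 2.14-fold (SE 0.16 in log2, adjusted p = 0.00266). Smad6, an inhibitor of BMP signalling, rose by 0.58 (SE 0.11), while its other probe gave 0.30 (adjusted p = 0.405). The BMP targets Id1, Id2 and Id3 had log2 changes of 0.09, 0.04 and 0.21, none called, with adjusted p from 0.67 to 0.95.

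Retinoid genes gave 1 rise and 1 fall among 9 tested (1 and 4 in the blocked fit), with a median of -0.29 (-0.13 in the authors' normalized table). Rbp7, which binds retinol in the cell, measured 10.50, 10.86 and 10.50 in tamoxifen, against 9.38, 9.66 and 9.58 in ethanol, and rose 2.12-fold (SE 0.18 in log2, adjusted p = 0.00473). Rxrg, a retinoid X receptor, measured 6.46, 6.49 and 6.61 in tamoxifen and 7.44, 7.11 and 7.37 in ethanol, and fell by 0.79 (SE 0.09, adjusted p = 0.000985). Because tamoxifen binds oestrogen receptors, genes that oestrogen induces in human breast cells were counted too. Of 13 tested 3 were higher and 0 lower (4 and 5 in the blocked fit), which were Pdzk1, Gata3 and Xbp1, with a median of -0.09. The call of Xbp1 was lost when any 1 of the 6 EpiLC samples was left out. Greb1, another gene of that list, had a change of -0.61 (adjusted p = 0.103).

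Germ cell and stress genes followed. Of 17 germ cell genes 3 were higher and 0 lower (7 and 0 in the blocked fit), with a median of 0.01. Dnd1, which protects mRNAs in germ cells, measured 11.18, 10.87 and 11.06 in tamoxifen, against 9.63, 9.59 and 9.73 in ethanol. Nanos3, a translational repressor of germ cells, was detected on 5 of 5 tamoxifen and 0 of 3 ethanol arrays and was at least 1.89-fold higher. Of 22 p53 targets 4 were higher and 0 lower (10 and 0 in the blocked fit), with a median of 0.28. The share called was 18.2%, against 6.91% of all genes tested, and the blocked fit called 19.9% of all genes. Ddit4, an inhibitor of mTOR that stress induces, measured 12.03, 11.64 and 11.57 in tamoxifen and 10.86, 10.46 and 11.01 in ethanol, and rose 1.96-fold (SE 0.15 in log2, adjusted p = 0.00417). The death receptor Fas was at least 1.46-fold higher, although its other probe had a change of -0.09. Mdm2, which degrades p53, rose by 0.50 (SE 0.09), and Plk3 by 0.68 (SE 0.16) with 5 of 6 single samples ending its call. With arrays at equal medians Mdm2 had an adjusted p of 0.0865. Of 19 apoptosis regulators 1 was higher (Bcl2l11) and 0 lower (4 and 0 in the blocked fit). This share of 5.26% is below the 6.91% of all genes tested. Bcl2l11 was not called in 15 of the 20 alternatives, among them those without any 1 EpiLC sample. Of 24 antioxidant genes 3 were higher and 0 lower, a share of 12.5%, and 1 was higher with arrays at equal medians. Gpx4, which reduces lipid peroxides, measured 12.05, 12.49 and 12.07 in tamoxifen, against 11.22, 11.58 and 11.13 in ethanol, a rise of 1.86-fold (SE 0.14 in log2, adjusted p = 0.00385).

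Genes of general cell machinery moved little. Of 80 respiratory chain and ATP synthase genes 0 passed (1 higher and 2 lower in the blocked fit), with changes between -0.36 and 0.28. The smallest p was that of Sdhaf3, an assembly factor of complex II, with a change of 0.28 (adjusted p = 0.113). Of 59 ribosomal protein genes Rpl27a fell by 0.32 (SE 0.08). It was not called once tamoxifen sample 2 or 3 or any 1 ethanol sample was left out (adjusted p = 0.0539 to 0.115). The 1 called higher in that list, Rps6kl1, is a kinase-like gene that shares the letters of the name and rose by 1.00 (SE 0.17). Of 33 histone acetylation and Brg1 complex genes 1 was higher (Kat7) and 0 lower (2 and 1 in the blocked fit). Kat7 was not called in 10 of the 20 alternatives, among them those without tamoxifen sample 2 or 3 or ethanol sample 1 or 2. Of 21 Polycomb and DNA methylation genes 0 were higher and 1 lower (Dnmt3b), with 2 and 3 in the blocked fit. The shares called in these lists were 3.03% and 4.76%, below the 6.91% of all genes tested. Of 7 primitive endoderm genes Sparc was higher, a call absent in 11 of the 20 alternatives, among them those without any 1 EpiLC sample other than tamoxifen sample 2. Of 7 mesoderm and definitive endoderm genes 0 were called (2 higher and 0 lower in the blocked fit). Gsc of this last list had a change of 0.82 (adjusted p = 0.0999) and was called in the blocked fit. Gata4, Afp and Ttr of endoderm and Foxa2, Mesp1 and Tbx6 of mesoderm and endoderm were detected on no EpiLC array. Of 27 genes for regulators of G protein signalling and orphan receptors 2 were higher and 0 lower. This share of 7.41% is close to the 6.91% of all genes tested. Among the 2 was Gpr20, at least 1.44-fold higher. Leaving out tamoxifen sample 3 brought Gpr20 to an adjusted p of 0.0512 and the number higher to 0, and leaving out tamoxifen sample 2 or ethanol sample 1 gave 1.

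The change in EpiLC was set against the change in ESC, which share no samples with it. Both changes were tested with the same spread per gene, estimated over all 12 samples. A gene of small spread can therefore be called more easily in both, so the calls are not independent and their overlap is a description. Of the 447 genes higher in tamoxifen EpiLC, 132 were also higher in tamoxifen ESC, which is 29.5% of the EpiLC list and 25.1% of the ESC list. Of the 204 lower genes 36 were also lower in ESC, 17.6% of the EpiLC list and 10.9% of the ESC list. In ESC 856 genes (9.09%) were called, 5.58% of all genes tested as higher and 3.5% as lower. The difference between the EpiLC and ESC changes was called for 244 genes (2.59%), of which 122 were also called in EpiLC. With arrays at equal medians 23.1% of the differences were positive, against 54.5% here. Annexins show the shared kind: Anxa3 rose by 0.94 in EpiLC and by 0.93 in ESC, and Anxa2 by 0.82 and 0.67. The Gbp genes show the other kind. In ethanol ESC Gbp2 measured 4.63, 4.59 and 4.74, and it was detected on 0 of 6 tamoxifen and 0 of 5 ethanol arrays of ESC. Its change in EpiLC exceeded that in ESC by 1.78 (SE 0.22, adjusted p = 0.00335) and by 1.66 without background correction.

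For 12 genes the changes were called in opposite directions. The difference was called for each, which nearly follows from that choice, since both changes of a gene have the same standard error. Dnd1 rose by 1.39 in EpiLC and fell by 0.61 in ESC (adjusted p = 0.000284 for the difference). Tgm1, a transglutaminase that cross-links the surface of skin cells, was detected on 0 of 3 ethanol EpiLC arrays and was at least 1.05-fold higher in EpiLC, while it fell by 0.97 in ESC. It was detected on 2 of 5 tamoxifen EpiLC arrays, and its EpiLC call was lost without background correction (adjusted p = 0.0576). Mapt rose by 0.51 in EpiLC, a call lost without tamoxifen sample 2 or 3 or ethanol sample 1 (adjusted p = 0.0603 to 0.0626), and fell by 0.46 in ESC. Its EpiLC call was also lost without background correction (adjusted p = 0.106) and with the probes of each gene averaged (adjusted p = 0.389). Alpk3, S1pr2, Irak3, Usp11 and 1190005I06Rik were also higher in EpiLC and lower in ESC. Mapre2, Mob3b, Pgm2l1 and Reln were lower in EpiLC and higher in ESC.

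**Figure D4:**
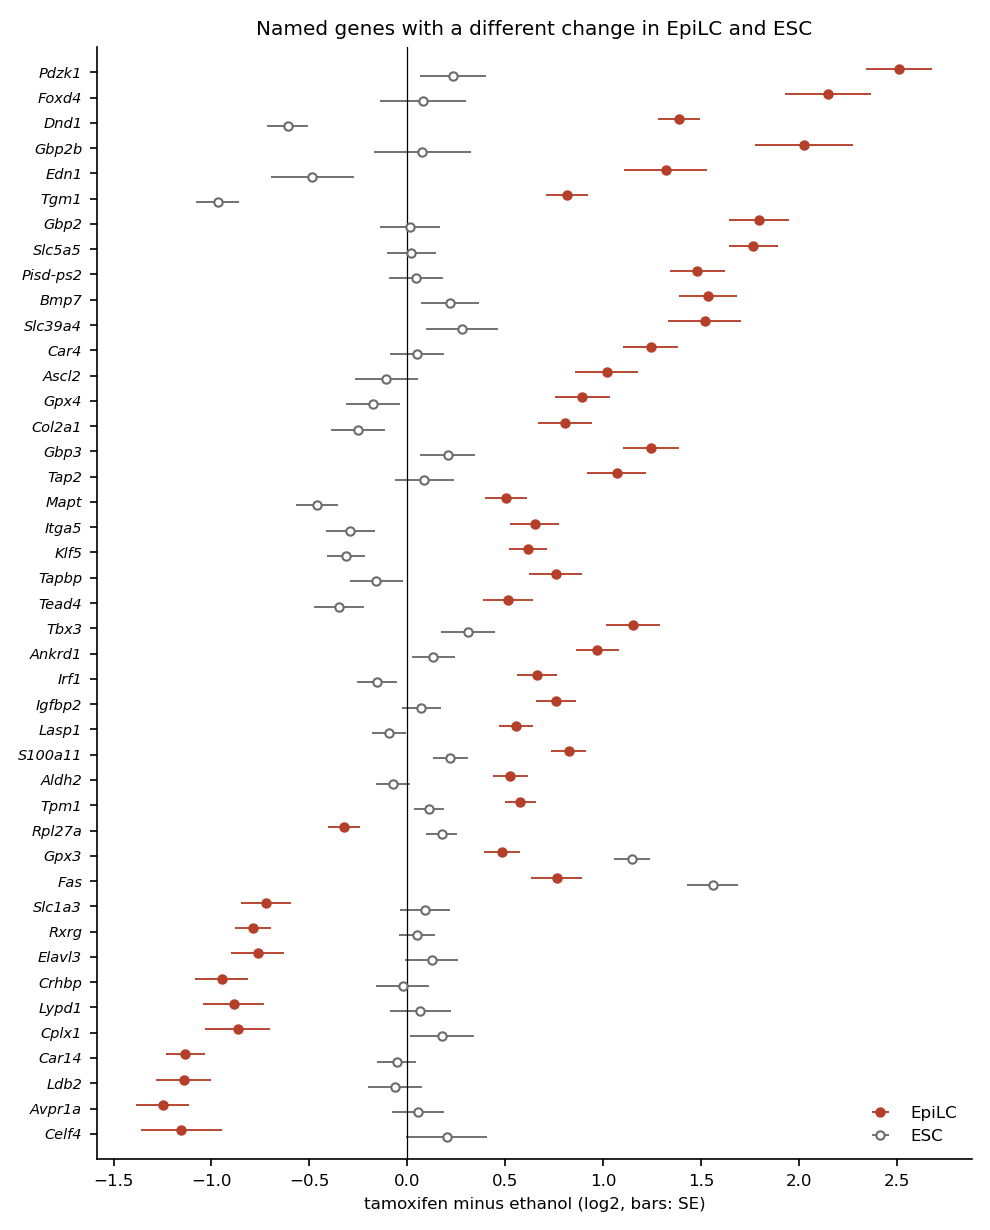
Log2 change with tamoxifen, with its standard error, in EpiLC (filled) and in ESC (open) for the 43 named genes whose changes differed at an adjusted p under 0.05. Most EpiLC points lie away from 0 with the ESC points near it, and 16 of the genes were detected on 0 ESC arrays, where a change could not be measured; Fas and Gpx3 lie further from 0 in ESC, and Dnd1, Tgm1 and Mapt are on opposite sides.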

How the data were processed

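Total RNA of 12 mouse samples was read on 19 Illumina arrays. The deposited table gives bead intensity on a linear scale and a detection p-value for each probe and array, per the file headers. A second table, which the authors normalized, gives intensity too and served as an alternative; the submitters' processing notes name limma without a method. How the authors scanned and summarised the beads is not given in the sources used here.

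The 19 arrays were normalized together with limma 3.58.1 under R 4.3.3, whose neqc function applies normexp, an offset of 16, quantiles and log2, and a fit of sample plus hybridization round gave 1 value per sample. A probe was kept where 3 or more arrays had its detection p-value below 0.01, which held for 12529 of 25697. Of all probes 23978 carried 1 gene symbol by gene identifier, accession or platform name. The brightest probe stood for each gene, which left 9422 features, 8680 of them with a symbol. The test was limma's moderated linear model (lmFit, eBayes) over all 12 samples, with Benjamini-Hochberg adjustment over the 9422 and a threshold of 0.05. The samples, not the beads, were the units of the test, and the median standard error of a log2 change was 0.132. The code was tested on simulated data.

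A gene detected on 0 arrays of the dimmer group has a bound, from the mean of the brighter group over the dimmer group's own level or the lowest detected signal of each array, whichever was higher. Deviations from the group means of same-numbered tamoxifen and ethanol samples correlated at 0.547, 0.567 and 0.497. Those of other numbers (-0.427 to -0.147) must then be negative on average, since deviations cancel within a group, and add no evidence. By the positive values the numbers from the labels pair the samples. The fit without this block is given unless stated, and its error includes the spread that same-numbered samples share. It called 651 genes, against 1876 with the block, so a gene given as not called may pass in the blocked fit. The labels do not say whether samples were separate cultures, so the p-values cover this sample-to-sample spread alone, possibly a technical one; an exact permutation of 3 against 3 cannot go below 0.1. Genes were named by rule: the 15 largest rises and falls with no overlap that were detected on every array of the higher group, the 8 brightest called genes in each direction, up to 5 called members of each of 32 lists, the forkhead family, and the 8 largest differences from ESC. The comparison, the lists and these rules were chosen with earlier results of these data known.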

Additional observations from a re-analysis of the deposited data

Results flagged for a closer look

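The change with tamoxifen differed between EpiLC and ESC by the interaction term of the fit (adjusted p under 0.05) for 43 named genes. The values are the change in EpiLC minus that in ESC on the log2 scale. For 19 of the 43 at least 1 of the 4 groups was detected on 0 arrays, and 16 were detected on 0 ESC arrays (Foxd4, Gbp2b, Gbp2, Slc5a5, Celf4, Avpr1a, Car4, Ldb2, Car14, Cplx1, Gbp3, Tap2, Lypd1, Crhbp, Elavl3 and Rxrg). The other 3 are Tgm1, Ascl2 and Fas. For these 19 the value sets a measured change against levels at the background, so it is a fitted number and not a measured size, and no order is read from it. Without background correction all 43 kept their sign, 37 were called and 25 were over 1.5 times smaller. Above 0 were Pdzk1 2.28, Foxd4 2.07, Dnd1 2.00, Gbp2b 1.95, Edn1 1.80, Tgm1 1.78, Gbp2 1.78, Slc5a5 1.75, Pisd-ps2 1.44, Bmp7 1.32 and Slc39a4 1.24. Also above 0 were Car4 1.19, Ascl2 1.13, Gpx4 1.07, Col2a1 1.06, Gbp3 1.04, Tap2 0.98, Mapt 0.97, Itga5 0.94, Klf5 0.93, Tapbp 0.92 and Tead4 0.86. The remaining positive differences were Tbx3 0.84, Ankrd1 0.84, Irf1 0.82, Igfbp2 0.69, Lasp1 0.65, S100a11 0.60, Aldh2 0.60 and Tpm1 0.47. Below 0 were Celf4 -1.36, Avpr1a -1.31, Ldb2 -1.08, Car14 -1.08, Cplx1 -1.04, Lypd1 -0.95, Crhbp -0.93, Elavl3 -0.89, Rxrg -0.84, Slc1a3 -0.81 and Rpl27a -0.50, all genes that fell in EpiLC. Fas -0.80 and Gpx3 -0.67 had positive changes in both cell types, with the higher fitted change in ESC. The adjusted p ranged from 0.000284 (Dnd1) to 0.0481 (Tpm1). The named genes were picked partly for this difference, so their number is no count of how common it is.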

How the results depend on the processing

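Of the 119 named genes that were called, 44 kept the call in all 20 alternatives, 78 kept it with any 1 EpiLC sample left out, and 0 changed sign. The 651 calls in EpiLC and the 244 differences from ESC became 1071 and 396 with the authors' normalized table, 366 and 82 on round 1 arrays, and 1876 and 1147 with the replicate block. Beyond the counts and calls given with the results, the block ended no call of a named gene. In a fit of the EpiLC samples alone 212 were called, and 1169 with the replicate block added, an alternative chosen after seeing the data. In that smaller fit without the block the numbers called higher were 6 for trophoblast, 8 for interferon, 5 for annexins, 2 for epithelial genes and keratins, 1 for naive genes and 1 for antigen presentation. Leaving out 1 sample, or 1 number in both groups, gave 198 to 548 calls and 62 to 198 differences. Fewer samples leave a wider error, but other causes were not tested. Other scalings, filters, probe averages and array weights gave 546 to 827 calls. The ethanol EpiLC were in round 1 alone, so their round 2 level was not measured. Dim genes are limited by the background, and 46 of the 651 called had 0 detected arrays in their lower group.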
